A study of Mus musculus with 4 samples.

Results

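Gpr17-positive cells of the adult mouse hippocampus were chosen by their counts of Gpr17 in single-cell RNA sequencing data. A barcode was counted as such a cell when it held at least 200 detected genes, at least 3 unique molecular identifiers (UMIs, counted RNA molecules) of Gpr17, and at most 2 UMIs of the microglial genes P2ry12 and Cx3cr1, the endothelial gene Cldn5 and the astrocyte gene Gja1 in sum. This gave 126 cells among 6281 barcodes with at least 200 genes, out of 6464 barcodes in all. The working name of these cells was differentiating oligodendrocyte cells, with Gpr17, Neu4, Bmp4 and Tnr as markers. The hippocampi came from 2 male Dp(10)2Yey mice and 2 male wild-type (WT) littermates on a C57BL/6J background, all 3 months old. Dp(10)2Yey mice carry a duplication of a segment of mouse chromosome 10 and serve as a partial model of Down syndrome. Cells were dissociated on 2 consecutive days, 1 mouse of each genotype per day, and each mouse gave 1 library of 3′ ends made on the 10x Genomics platform. The labels do not state which replicate numbers share a day.

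Gpr17 is a G protein-coupled receptor found in the central nervous system mainly on cells passing from oligodendrocyte precursors to oligodendrocytes. Precursors divide and carry the growth factor receptor Pdgfra and the proteoglycan Cspg4, while mature oligodendrocytes make the proteins and lipids of myelin. Cells in between lose the precursor genes, switch on genes such as Enpp6 and Bcas1 and start to wrap axons, and precursors go on giving rise to them in the adult hippocampus.

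The 4 libraries, WT_1, WT_2, Dp2Yey_1 and Dp2Yey_2, held 3002546, 6848466, 5112759 and 9612011 UMIs, and values for the libraries are given in this order throughout. The Gpr17-positive cells numbered 20, 32, 32 and 42, with 140336, 214278, 228504 and 345015 UMIs in sum and a median of 6424.5, 5437.5, 6407 and 6278.5 UMIs per cell. The medians of the cells lay close together, and WT_1 had the fewest cells and UMIs. Cells on either side in the lineage served as neighbours. The precursor gate took barcodes with at least 3 UMIs of Pdgfra, Cspg4 and C1ql1 together and the mature gate took barcodes with at least 5 UMIs of Mog, Mal, Ermn, Opalin and Aspa together, each with fewer than 3 Gpr17 UMIs and the same exclusion. There were 277 precursor-gate and 934 mature-gate cells, and 4 barcodes that met both gates were left out. Over all libraries the median was 6288 UMIs per Gpr17-positive cell, 4403 per precursor-gate cell and 4969 per mature-gate cell. The Gpr17-positive cells were thus deeper than both neighbours. Fewer than 1500 UMIs were held by 1 Gpr17-positive, 28 precursor-gate and 72 mature-gate cells. Among the 126 Gpr17-positive cells, 103 also met the precursor sum alone, 9 the mature sum alone, 1 both and 13 neither. The 10 cells that met the mature sum came from WT_2 (4 cells), Dp2Yey_1 (1 cell) and Dp2Yey_2 (5 cells). The exclusion removed 2 barcodes with at least 3 Gpr17 UMIs. Doublet calling marked 52 barcodes of the 4 libraries and 0 of the 126 cells, and the marked barcodes were kept. Pairs of libraries shared 0 to 3 barcode sequences, and 0 of the shared barcodes were Gpr17-positive cells.

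The rule fixed the level of Gpr17, which is given as a description. The median was 4 Gpr17 UMIs per cell and the highest was 48. Members had been selected on this gene and on the near absence of the 4 excluded genes. Exactly 3 UMIs were found in 34 cells, 4 in 33, 5 in 8 and 6 or more in 51. Just outside the threshold, 62 cells with the same exclusion had 2 Gpr17 UMIs and 121 had 1. Cells just inside, with 3 UMIs, resembled those just outside, with 2. Pdgfra was detected in 85.3% of the cells with 3 UMIs and 91.9% of those with 2, Neu4 in 79.4% and 77.4%, Tnr in 88.2% and 91.9%, Bmp4 in 20.6% and 6.45%, and Enpp6 in 2.94% and 3.23%. The precursor sum was met by 88.2% and 93.5%.

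The label was checked against its markers in the 2204 barcodes of microglia, which should lack them. Neu4 was detected in 83.0% of the 88 cells with 3 to 6 Gpr17 UMIs, in 97.4% of the 38 cells with 7 or more, and in 0.272% of microglia. Tnr was detected in 93.2% and 100%, against 0.544% of microglia. Bmp4 was detected in 22.7% and 84.2%, against 0.0907% of microglia. The median depth was 5493.5 UMIs in the cells with 3 to 6 Gpr17 UMIs, 8126 in those with 7 or more and 3993 in microglia. After every cell was thinned to 1500 UMIs, Bmp4 was left in 5.75% and 52.6% of the cells and 0.0502% of microglia, Neu4 in 48.3% and 60.5% against 0.100%, and Tnr in 75.9% and 97.4% against 0.351%. All 3 markers were thus far above microglia, but Neu4 and Tnr were also found in most cells with 2 Gpr17 UMIs and in the precursor gate. The name of differentiating cells matched the markers only in part, and the cells are called Gpr17-positive here.

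**Figure D1:**
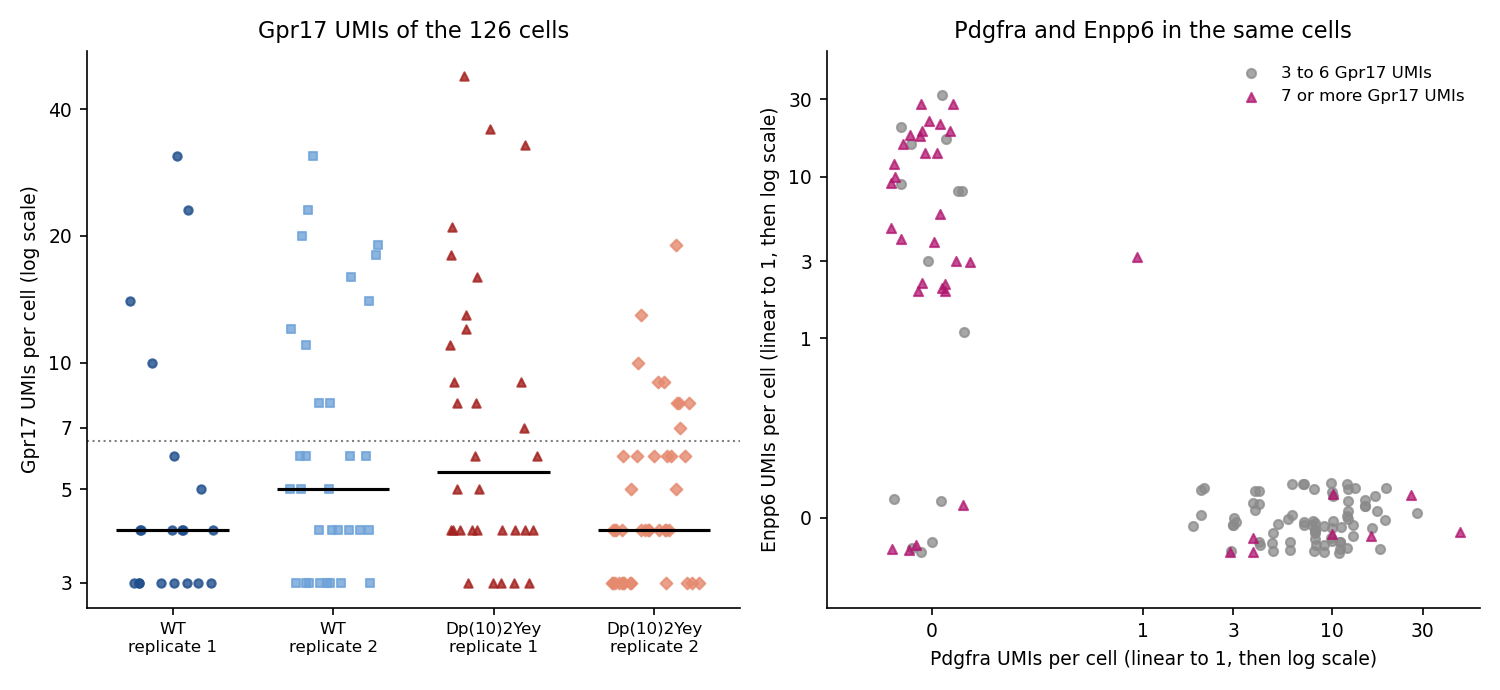
Gpr17 UMIs of the 126 Gpr17-positive cells by library (left, log scale, 1 point per cell) and Pdgfra against Enpp6 UMIs in the same cells (right, linear to 1, then log scale). Most cells hold 3 or 4 Gpr17 UMIs, and 1 cell holds UMIs of both Pdgfra and Enpp6.

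Members differed widely in what they expressed beside Gpr17, and the step at 7 Gpr17 UMIs used to show this was chosen after seeing the data. It marks a range and not a cell type. Cells with 7 or more UMIs were 4 of 20, 11 of 32, 14 of 32 and 9 of 42 in the libraries (20%, 34.4%, 43.8% and 21.4%). The shares of the WT and Dp2Yey libraries overlapped. Pdgfra, whose product receives the precursors' growth signal, was detected in 84.1% of the cells with 3 to 6 Gpr17 UMIs, 23.7% of those with 7 or more and 0.272% of microglia. Thinning to 1500 UMIs left it in 72.4%, 15.8% and 0.201%. Enpp6, a choline phosphodiesterase of newly forming oligodendrocytes, was detected in 10.2%, 68.4% and 0.454%, and after thinning in 6.90%, 42.1% and 0.201%. The deeper cells thus had the lower share of Pdgfra, and equal depth kept the direction for both genes. Cspg5, a proteoglycan that the rule did not use, was detected in 87.5%, 31.6% and 2.45%, and in 82.8%, 26.3% and 1.15% after thinning. Fyn, a kinase of process outgrowth and myelination, was detected in 76.1%, 100% and 6.26%, and in 33.3%, 92.1% and 2.46% after thinning. Mbp, a protein that compacts myelin, was detected in 31.8%, 78.9% and 22.8%, and in 21.8%, 47.4% and 11.5% after thinning. Ccnd1, a cyclin, was detected in 75%, 23.7% and 42.0%, and in 55.2%, 18.4% and 20.4% after thinning, so microglia gave no low background for it.

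**Figure D2:**
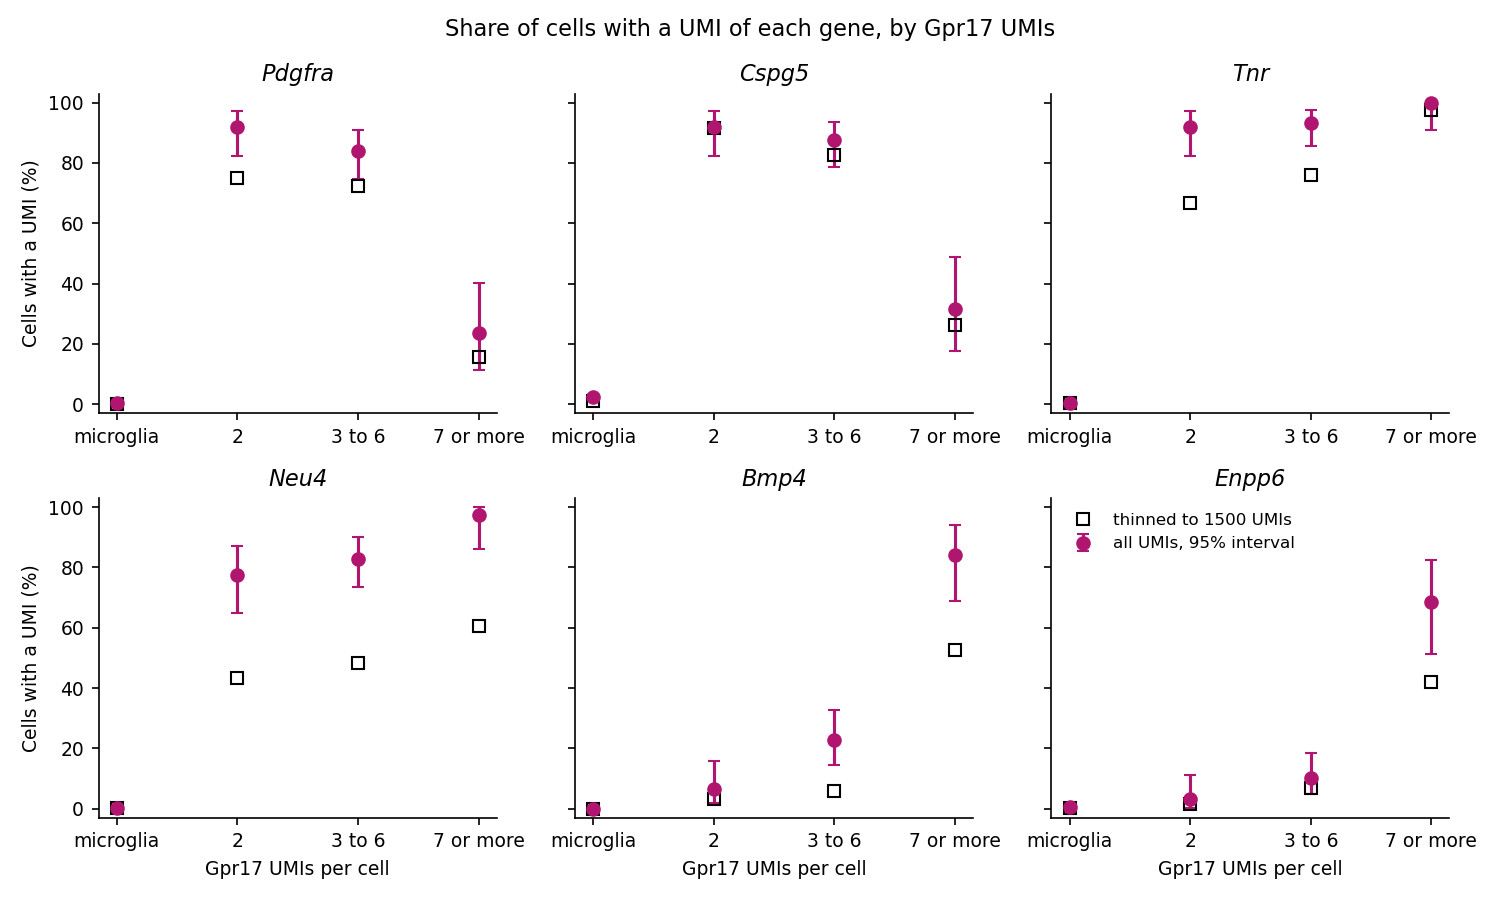
Share of cells with at least 1 UMI of 6 genes (percent) in microglia barcodes and in cells with 2, 3 to 6 and 7 or more Gpr17 UMIs; filled points show all UMIs with exact 95% binomial intervals, open squares the same cells thinned to 1500 UMIs. Pdgfra falls from 84.1% to 23.7% between the cells with 3 to 6 and those with 7 or more Gpr17 UMIs, while Enpp6 goes from 10.2% to 68.4%.

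Bmp4, Fyn and Pdgfra split the same way in every library. Bmp4 stood at 888, 793, 734 and 526 CPM (UMIs scaled to equal totals) in the cells with 7 or more Gpr17 UMIs and at 60.8, 84.7, 18.6 and 68.0 CPM in those with 3 to 6. Fyn stood at 2927, 2605, 2880.2 and 2546 CPM against 365, 585, 671 and 488 CPM. Pdgfra stood at 96.0, 320, 355 and 495 CPM against 1348, 893, 1798 and 884 CPM. In all 4 libraries Bmp4 and Fyn were higher, and Pdgfra lower, in the cells richer in Gpr17, with no overlap between the ranges. Mbp did not follow, at 3023, 758, 1675 and 2094 CPM against 71.0, 2326, 1379 and 4108 CPM, and it was lower in the cells richer in Gpr17 in WT_2 and Dp2Yey_2. The same 2 libraries had lower Mag, an adhesion protein of the myelin sheath, at 249 and 863 CPM against 1394 and 3844 CPM. Of the 10 Gpr17-positive cells that met the mature sum, 8 had 3 to 6 Gpr17 UMIs, 3 of them in WT_2 and 5 in Dp2Yey_2. Those 10 cells held 1062 of the 1320 Mag UMIs and Mbp at 7115 CPM, while the 103 that met the precursor sum alone held 19 Mag UMIs and Mbp at 234 CPM. By share of cells, Mag was detected in 14.8% of all cells with 3 to 6 Gpr17 UMIs, 31.6% of those with 7 or more and 10.2% of microglia, and after thinning in 13.8%, 15.8% and 3.61%, so at equal depth the 2 ranges were nearly level. Only 4 cells stand behind the WT_1 values at 7 or more UMIs. Pdgfra and Enpp6 were nearly exclusive within single cells. Pdgfra without Enpp6 was found in 82 of the 126 cells, Enpp6 without Pdgfra in 34, neither in 9 and both in 1, a WT_2 cell. Bmp4 was found beside each of them, but unequally. With Pdgfra, 20 cells held both genes, 63 held Pdgfra without Bmp4 and 32 held Bmp4 without Pdgfra. Bmp4 and Enpp6 were held together by 28 cells. The 24 Bmp4 cells without Enpp6 outnumbered the 7 Enpp6 cells without Bmp4.

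The 13 Gpr17-positive cells that met neither neighbour sum had a median of 11528 UMIs. Pdgfra, whose level the gate limits, was at 0 UMIs in them, and Enpp6, Tcf7l2, Myrf, Bcas1, Fyn and Mbp were each detected in all 13. Mbp and Tcf7l2 were also detected in 22.8% and 28.4% of microglia at a median of 3993 UMIs. Cspg5 was detected in 1 of the 13 cells, with 1 UMI. The 10 cells that met the mature sum had a median of 13069 UMIs and held Mag at 6850 CPM. Neu4 was detected in 5 of these 10 cells and Bmp4 in 4. At least 2 UMIs of the proliferation genes Mki67 and Top2a in sum were found in 0 of 126 Gpr17-positive cells and in 0 of 37, 6 of 80, 2 of 70 and 3 of 90 precursor-gate cells, most of them from WT_2.

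The UMIs of each population were summed per library, and the 12 sums were compared with edgeR's quasi-likelihood test with the library as a block, at a Benjamini-Hochberg adjusted p under 0.01. The 13 genes of the rule and the gates were left out, since their levels were set by the choice of cells, and 6747 genes were tested. Against the precursor gate, 291 genes (4.31%) were higher in the Gpr17-positive cells and 106 (1.57%) were lower. Against the mature gate, 1543 (22.9%) were higher and 1350 (20.0%) were lower. The 2 counts are not on equal terms, as 103 of the 126 cells also met the precursor sum and the mature gate held 4964004 UMIs against 1195608 in the precursor gate. Both neighbours were exceeded by 84 genes (1.24%), and 9 genes were lower than in both. A further 142 genes were above the precursor gate and below the mature gate, and 84 went the other way. The median log2 fold change over all genes tested was 0.0017 against the precursor gate and 0.034 against the mature gate. The number called against the precursor gate, 397 in all, depended on single libraries, with 159 calls without WT_2 and 237 without Dp2Yey_2. The 84 genes above both neighbours became 48 without WT_2. The threshold on Gpr17 moved the precursor comparison too, with 234 calls at 2 or more UMIs and 628 at 4 or more, and the count above both neighbours went to 50 and 149. Without the filter on low counts 632 genes were called against the precursor gate, at an adjusted p under 0.05 813, and with neighbours gated without the exclusion 233. With only the 13 cells in neither neighbour gate, the calls were 995 against the precursor gate, 1287 against the mature gate and 168 above both.

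**Figure D3:**
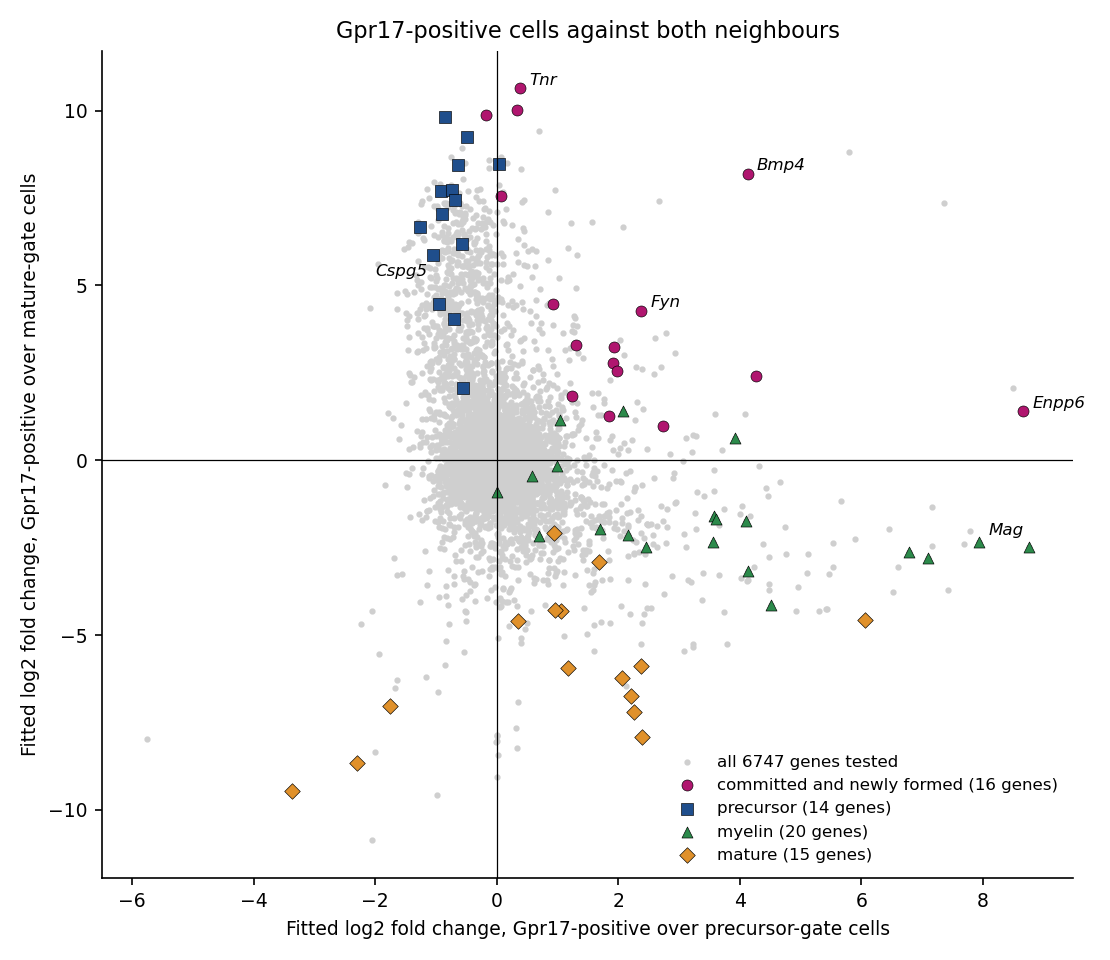
Fitted log2 fold change of each of the 6747 genes tested in Gpr17-positive over precursor-gate cells (horizontal) and over mature-gate cells (vertical), with the genes of 4 marker lists in color. Precursor markers lie high on the vertical axis and left of 0, myelin genes lie right of 0 and mostly under 0, and Bmp4, Enpp6 and Fyn lie in the upper right.

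Of 19 markers of committed precursors and newly formed oligodendrocytes, Gpr17 was in the rule, 16 were tested, and Casr and Kif19a were too low to test. Of the 16, 12 were higher than in the precursor gate and 0 lower, with a median log2 fold change of 1.88, and 16 were higher than in the mature gate, with a median of 3.28. Bmp4 (ENSMUSG00000021835, mm10 chromosome 14, 46383520 to 46390669), which encodes a secreted ligand, was at 290.4, 368, 380.1 and 199 CPM in the Gpr17-positive cells and at 0, 31.8, 9.67 and 15.6 CPM in the precursor gate. Every Gpr17-positive sum was above every precursor-gate sum, with a log2 fold change of 4.13 (SE 0.29, adjusted p 7.62e-09, higher in 4 of 4 libraries). The mature gate held 3 Bmp4 UMIs, and the ratio was 497 (95% counting interval 168 to 2427). Enpp6 (ENSMUSG00000038173, mm10 chromosome 8, 46986887 to 47096762) was at 398, 410.4, 480.3 and 414 CPM in the Gpr17-positive cells and at 191, 150.5, 153 and 159.6 CPM in the mature gate. The libraries lay close together in each population and did not overlap between them, with a log2 fold change of 1.4 (SE 0.14, adjusted p 2.82e-08, 4 of 4 libraries). The precursor gate held 1 Enpp6 UMI in all, and the ratio was 515 (92.0 to 20403).

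Fyn (ENSMUSG00000019843, mm10 chromosome 10, 39368855 to 39565381) was at 1067, 1396, 1758 and 1084 CPM in the Gpr17-positive cells, 233, 249, 309.5 and 223 CPM in the precursor gate and 70.1, 63.2, 72.6 and 66.7 CPM in the mature gate. The 3 populations did not overlap, and the log2 fold changes were 2.38 (adjusted p 2.08e-10) and 4.28 (adjusted p 2.47e-15), each in 4 of 4 libraries. Bcas1, a protein of early myelinating cells, was at 540.2, 1047, 810.2 and 622 CPM against 90, 117, 119 and 118 CPM in the precursor gate. WT_2 was the highest, and every library was above its neighbours, with log2 fold changes of 2.74 (adjusted p 1.29e-09) over the precursor gate and 0.99 (adjusted p 5.53e-06) over the mature gate. Tcf7l2, a transcription factor of the Wnt pathway needed for differentiation, was at 209, 382, 368 and 592 CPM against 82.5, 92.8, 123 and 105 CPM. Dp2Yey_2 was the highest and WT_1 the lowest, and the log2 fold changes were 1.98 (adjusted p 4.92e-07) and 2.56 (adjusted p 1.36e-10). Itpr2, a calcium channel of the endoplasmic reticulum, rose over the neighbours by 0.92 and 4.48, and Mpzl1, Frmd4a, Tmem108, Tmem163, Lims2 and Rap2a also passed against both.

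Tnr and Neu4, named as markers of these cells, were shared with the precursor gate. Tnr (ENSMUSG00000015829, mm10 chromosome 1, 159523769 to 159931729), a glycoprotein of the extracellular matrix, was at 1175, 1288, 1470.1 and 1134 CPM in the Gpr17-positive cells and at 1035, 976, 1025 and 856 CPM in the precursor gate. Each library was higher than its own precursor-gate cells, but the log2 fold change of 0.38 did not pass (adjusted p 0.0590). Neu4 (ENSMUSG00000034000, mm10 chromosome 1, 94020451 to 94028334), a sialidase that trims sugars from proteins and lipids, was at 499.7, 656, 543 and 447 CPM against 345, 496, 435 and 409 CPM. Each library was again higher than its own precursor-gate cells, but the ranges overlapped and the log2 fold change of 0.33 did not pass either (adjusted p 0.126). Vcan (-0.18) and Sox6 (0.075) did not differ past the threshold from the precursor gate. The mature gate held 2 Tnr UMIs and 1 Neu4 UMI, for ratios of 3156 (872 to 26087) and 2637 (471 to 104355). With at least 4 Gpr17 UMIs, Tnr passed over the precursor gate at a log2 fold change of 0.60 (adjusted p 0.000199) and Neu4 at 0.48 (adjusted p 0.00856). Without the 10 cells that met the mature sum, an alternative chosen after seeing the data, Tnr was at 0.51 (adjusted p 0.000674) and Neu4 at 0.46 (adjusted p 0.00789). Over all alternatives that left out a library, neither passed. With only the cells in no neighbour gate, the Neu4 difference from the precursor gate changed sign. Of the 4 sialidase genes Neu1 was the other one tested, with log2 fold changes of 0.35 and -0.21, and 0 of the 2 passed against the precursor gate and 1 against the mature gate, with list medians of 0.34 and 4.91.

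**Figure D4:**
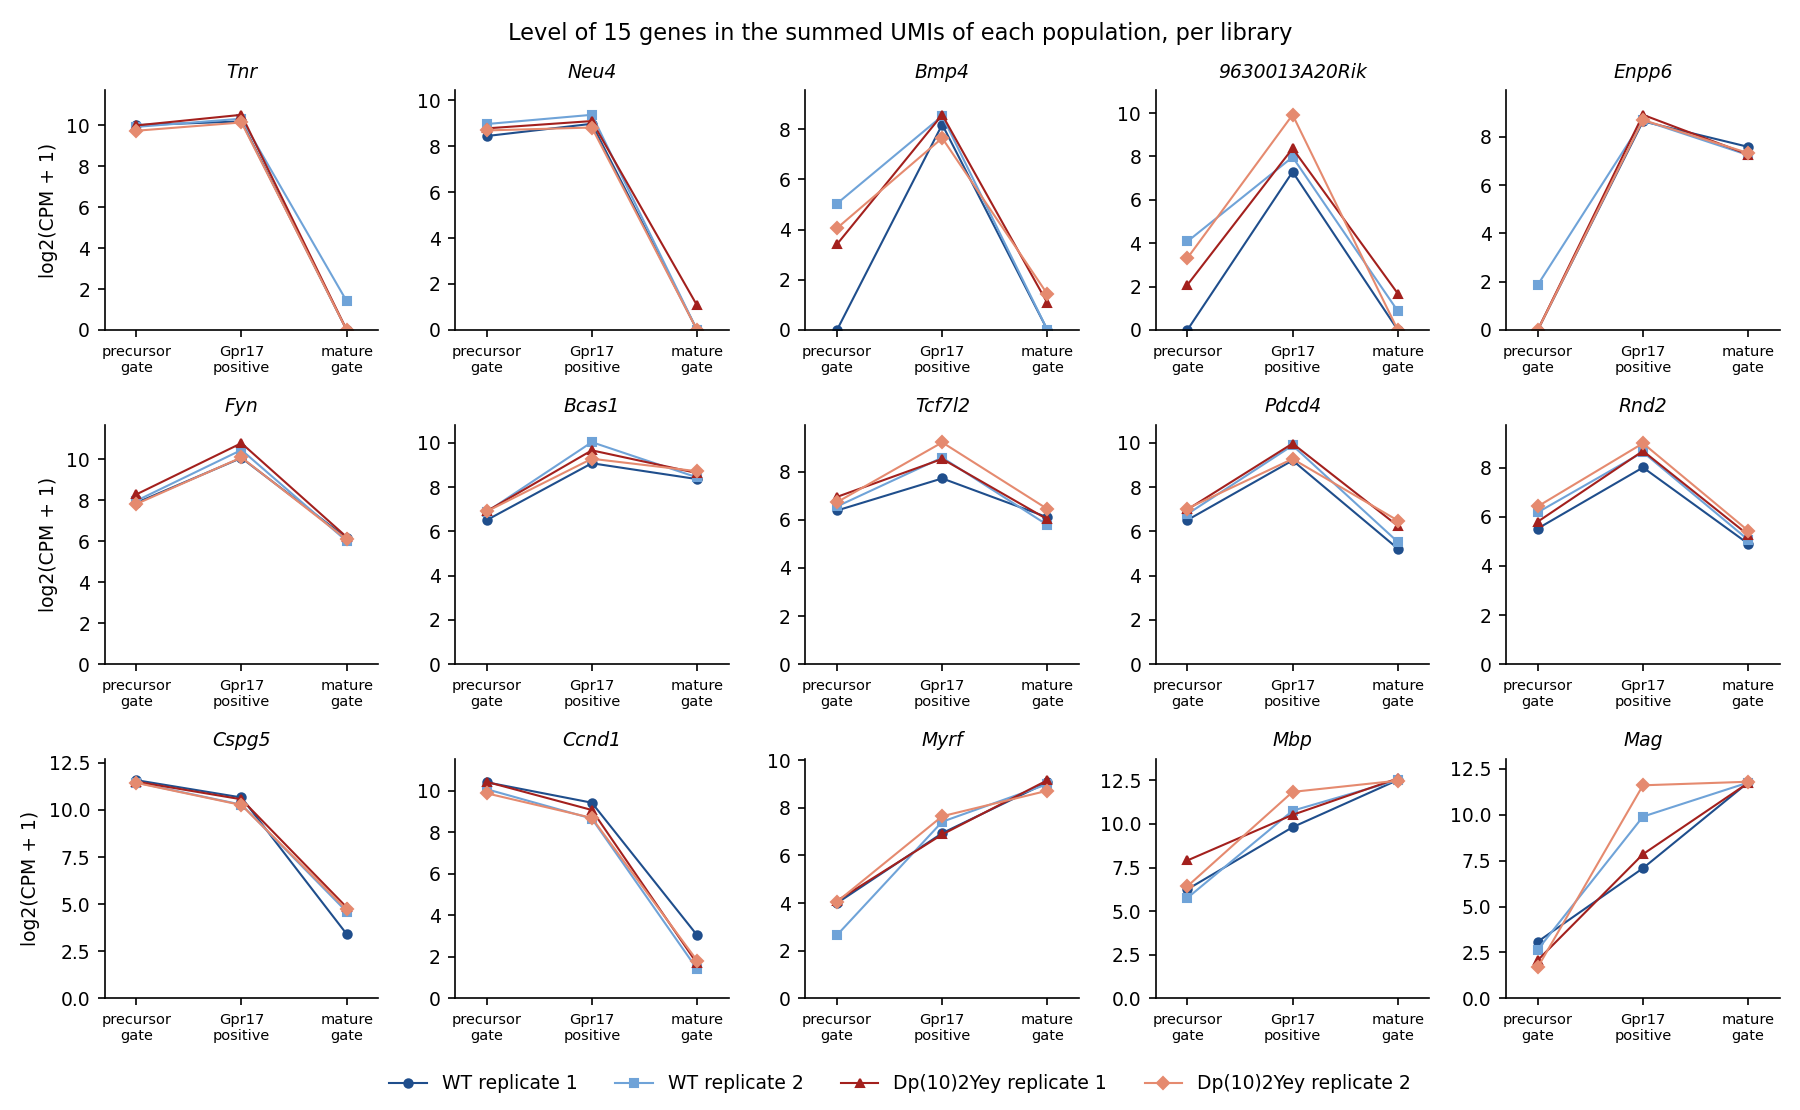
Level of 15 genes (log2 of CPM + 1) in the summed UMIs of Gpr17-positive, precursor-gate and mature-gate cells, with 1 line per library. Bmp4, Enpp6 and Fyn peak in the Gpr17-positive cells in all 4 libraries, Tnr and Neu4 are shared with the precursor gate, and Mbp and Mag vary between libraries in the Gpr17-positive cells.

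In the summed UMIs, precursor genes were lower than in the precursor gate but still high. Of 17 on the list, 3 were gate genes and 14 were tested, with 9 lower than in the precursor gate, 0 higher and a median log2 fold change of -0.72. All 14 were higher than in the mature gate, with a median of 7.25, or 7.16 with 2 genes at their bounds. Cspg5 (ENSMUSG00000032482, mm10 chromosome 9, 110243783 to 110262576) was at 1621, 1245, 1516 and 1227 CPM in the Gpr17-positive cells and at 3068, 2809, 2902 and 2778 CPM in the precursor gate. The populations did not overlap, and the level was lower in 4 of 4 libraries (log2 fold change -1.05, SE 0.13, adjusted p 1.59e-05). Emid1 (-1.26), Ncan (-0.96), Gria3 (-0.91), Rlbp1 (-0.84), Lhfpl3 (-0.74), Ptprz1 (-0.69) and Tmem100 (-0.64) were lower as well. These sums mix unlike cells, and only the precursor gate was chosen on precursor genes. Cspg5 was at 2056 CPM in the 103 Gpr17-positive cells that met the precursor sum alone. In the 13 that met neither sum it was at 6.55 CPM, and in the 10 that met the mature sum at 12.9 CPM. Ccnd1, the D-type cyclin, was at 682, 401, 535 and 411 CPM against 1350.3, 1072, 1370.2 and 934 CPM in the precursor gate and 1.66 to 7.25 CPM in the mature gate. It was lower than in the precursor gate in 4 of 4 libraries, by a log2 fold change of -1.24 (adjusted p 9.76e-07).

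The Notch list had 12 of 18 genes tested, with 0 higher and 2 lower than in the precursor gate (median -0.45) and 9 higher than in the mature gate (median 3.38). Both that fell encode repressors downstream of Notch. Hes5 was at 155, 132, 113 and 137 CPM in the Gpr17-positive cells and 345, 249, 287 and 235 CPM in the precursor gate, and Hes1 at 33.8, 56.6, 66.8 and 80.4 CPM and 82.5, 186, 129 and 201 CPM. Every library was below its own precursor-gate cells for Hes5 and Hes1, with log2 fold changes of -1.02 (adjusted p 0.000580) and -1.32 (adjusted p 0.000488). The BMP list had 11 of 24 genes tested. In it 1 gene, the ligand Bmp4, was higher and 1, the inhibitor of differentiation Id2, was lower than in the precursor gate (median -0.053). Against the mature gate 5 were higher and 1 lower (median 0.57). Id2 was at 284, 127, 167 and 173 CPM against 488, 321, 313 and 467 CPM, lower in 4 of 4 libraries (log2 fold change -1.14, adjusted p 6.94e-05). The receptors Bmpr1a (-0.053) and Bmpr2 (-0.086) did not pass. The Wnt list had 9 of 24 tested, with Tcf7l2 higher, 0 lower (median -0.14) and 3 higher and 3 lower than in the mature gate (median 0.064).

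Of 23 lineage transcription factors, 22 were tested, with 4 higher and 4 lower than in the precursor gate (median 0.027) and 14 higher and 3 lower than in the mature gate (median 1.34). The 4 higher were Myrf, Nkx6-2, Tcf7l2 and Zeb2. Nkx6-2, at 6.75, 84.9, 20.9 and 146 CPM, was highest in WT_2 and Dp2Yey_2 and no longer passed without the 10 cells that met the mature sum (adjusted p 0.334). With 7 or more Gpr17 UMIs, a step chosen after seeing the data, it was not past the threshold either, which is a description and no test. Myrf, which switches on myelin genes, was at 122, 169.8, 117 and 199 CPM in the Gpr17-positive cells, 15, 5.31, 16.1 and 15.6 CPM in the precursor gate and 536, 509, 571 and 421 CPM in the mature gate. The Gpr17-positive sums lay between the neighbours without overlap, at a log2 fold change of 3.61 (adjusted p 2.91e-07) over the precursor gate and -1.69 (adjusted p 9.54e-08) over the mature gate. Sox10, present through the whole lineage, was at 581, 656, 589 and 673 CPM and differed from neither neighbour past the threshold (0.0056 and -0.029). The matrix list had 12 of 18 tested, with 1 higher and 4 lower than in the precursor gate (median -0.35) and 9 higher and 2 lower than in the mature gate (median 6.5, or 5.86 with 1 gene at its bound). Of 26 receptors of the lineage, 19 were tested, with 4 higher and 1 lower than in the precursor gate (median -0.28) and 9 higher and 6 lower than in the mature gate (median 0.86). Higher were Fgfr2, Gpr37, Gpr62 and Lpar1, and the neurotrophin receptor Ntrk3 was lower. The 4 higher were at 0 in WT_1 and highest in WT_2 and Dp2Yey_2. Without the 10 cells that met the mature sum only Gpr62 of the 5 still passed (adjusted p 0.00310). At the same step of 7 or more Gpr17 UMIs, again as a description and no test, only Gpr62 and Ntrk3 were past the threshold.

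Myelin genes had risen in part, and unequally between libraries. Of 21 on the list, 20 were tested, with 17 higher and 0 lower than in the precursor gate (median 3.57) and 2 higher and 15 lower than in the mature gate (median -2.06). Mag (ENSMUSG00000036634, mm10 chromosome 7, 30899176 to 30914873) was at 135, 953, 229.7 and 3105 CPM in the Gpr17-positive cells, 7.50, 5.31, 3.22 and 2.23 CPM in the precursor gate and 3464, 3445, 3402 and 3554 CPM in the mature gate. WT_2 and Dp2Yey_2 were high and WT_1 and Dp2Yey_1 low, 1 of each genotype in either pair, so the levels followed the replicate number, and all 4 lay between the neighbours (log2 fold changes 7.94, adjusted p 1.90e-06, and -2.35, adjusted p 0.000102). Mobp, another myelin protein, was at 6.75, 589.7, 66.8 and 1239 CPM and Mbp at 898, 1727, 1466 and 3650.2 CPM, with the same libraries high. These libraries hold 9 of the 10 cells that met the mature sum. The part of the day of dissociation, which the labels do not tie to the replicate number, was not tested. Without those cells Mag was at 136, 101, 179 and 699 CPM, and Dp2Yey_2 alone stood out. This library was also apart in the median share of mitochondrial UMIs, at 4.13%, 4.65%, 4.26% and 2.77% in the Gpr17-positive cells and 4.55%, 4.82%, 4.57% and 2.66% in the precursor gate, and the part of RNA quality in the myelin levels was not tested. Mag was then at a log2 fold change of 6.16 (adjusted p 4.49e-11) over the precursor gate and Mbp at 3.29 (adjusted p 5.04e-12), while Mobp, at 0.99, no longer passed (adjusted p 0.159). Sirt2, a deacetylase of the cytoplasm (2.07 and 1.41), and the tetraspanin Cd9 (1.04 and 1.16) were the 2 list genes above both neighbours. Of 21 mature markers 15 were tested, with 3 higher than in the precursor gate (median 1.18) and all 15 lower than in the mature gate (median -5.93, or -5.89 with 1 gene at its bound).

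The cytoskeleton list had 25 of 26 genes tested, with 9 higher and 0 lower than in the precursor gate (median 0.46) and 9 higher and 11 lower than in the mature gate (median -0.16). Map1b, which binds microtubules, was at 439, 401, 522 and 279.9 CPM in the Gpr17-positive cells, 97.5, 63.7, 77.4 and 89.4 CPM in the precursor gate and 130.4, 101, 142 and 132 CPM in the mature gate. It was highest in the Gpr17-positive cells in 4 of 4 libraries (log2 fold changes 2.3, adjusted p 6.62e-08, and 1.67, adjusted p 1.57e-08). Tuba1a, a tubulin, was at 2985, 4699, 3959 and 2977 CPM against 1200.3, 1438, 1528 and 1569 CPM and 1737, 2061, 2102 and 1989.9 CPM, again highest in 4 of 4 libraries (1.33, adjusted p 2.14e-07, and 0.87, adjusted p 2.23e-06). Of 24 cholesterol synthesis genes 18 were tested, with 2 higher, Fdps (1.45) and Idi1 (1.59), and 0 lower than in the precursor gate (median 0.82), and 1 higher and 5 lower than in the mature gate (median -0.39). Of 28 cell cycle genes 3 were tested, with 0 higher and 0 lower than in the precursor gate (median -0.75) and 0 higher and 1 lower than in the mature gate (median 0.17). Of 13 genes around cell cycle exit 10 were tested, with 0 higher and 3 lower than in the precursor gate (median -0.35) and 4 higher and 4 lower than in the mature gate (median 0.031). The 3 lower were the cyclins Ccnd1, Ccnd2 (-1.64) and Ccnd3 (-1.25), while the inhibitor Cdkn1b (-0.28) did not pass. Of 18 genes that respond to dissociation 14 were tested, with 0 higher and 1 lower than in the precursor gate (median -0.43) and 4 each way against the mature gate (median -0.27).

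The 12 genes highest over both neighbours in every library, by the smaller fitted log2 fold change, were Rassf10, which cannot be ranked among them as both neighbours were at 0 UMIs, and in order 9630013A20Rik, Bmp4, Cnksr3, Pdcd4, Mycl, Lrrc42, Rnd2, Rasgef1b, Frmd4a, Pik3r3 and Fyn. Rassf10, of the RASSF family, had 39 UMIs in the Gpr17-positive cells, at 33.8, 33, 62.6 and 35.7 CPM. That made it at least 16.7-fold higher than in the precursor gate and at least 69.5-fold higher than in the mature gate, with 3 counts over each neighbour as the floor. DESeq2 gave it an adjusted p of 0.0784 against the mature gate and none against the precursor gate. The transcript 9630013A20Rik was at 155, 250.0, 329.9 and 968 CPM against 0, 15.9, 3.22 and 8.94 CPM in the precursor gate. Dp2Yey_2 was the highest and WT_1 the lowest, and the log2 fold change was 5.79 (adjusted p 6.01e-10, 4 of 4 libraries). It was detected in 14.8% of the cells with 3 to 6 Gpr17 UMIs, 68.4% of those with 7 or more and 0.0454% of microglia, and in 11.5%, 34.2% and 0.0502% after thinning. Pdcd4, an inhibitor of translation, was at 588, 939, 998 and 616 CPM against 90, 109, 126 and 129.6 CPM and 36.2, 44.9, 74.8 and 88.7 CPM. It exceeded the neighbours in every library, with a log2 fold change over the precursor gate of 2.79 (adjusted p 9.84e-09). Mycl, of the Myc family, was at 155, 142, 159 and 110.2 CPM against 15, 10.6, 29 and 26.8 CPM (2.67, adjusted p 3.61e-06). Without Dp2Yey_2, Cnksr3 no longer passed over the precursor gate (adjusted p 0.0207) and neither did Pik3r3 (adjusted p 0.0465), which also failed at 2 or more Gpr17 UMIs (adjusted p 0.0292).

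The 9 genes lower than in both neighbours included Fn3k, Pmp22 and Cavin3. Fn3k, a kinase that removes sugar adducts from proteins, had 0 UMIs in the Gpr17-positive cells and 17 and 236 in the neighbours, at least 4.4-fold and 14.7-fold lower. Pmp22, a membrane protein of peripheral myelin, was at 47.3, 23.6, 33.4 and 32.8 CPM against 97.5, 125, 77.4 and 118 CPM in the precursor gate and 275, 202, 199 and 259 CPM in the mature gate. It was lowest in the Gpr17-positive cells in 4 of 4 libraries (log2 fold changes -1.7, adjusted p 0.000135, and -2.8). The 8 with the highest fitted log2 fold change over the precursor gate were Cldn11, Enpp6, 9530059O14Rik, Mag, Tmem125, Gpr62, Fgfr2 and Rassf10. Of these, 9530059O14Rik (at least 36.1-fold higher), Tmem125 (22.8), Gpr62 (21.0), Fgfr2 (18.0) and Rassf10 had 0 UMIs in the precursor gate. Such bounds do not fix a rank, neither among these genes nor above others such as 9630013A20Rik. Tmem125, Gpr62 and Fgfr2 were at 0 in WT_1 and highest in WT_2 and Dp2Yey_2, as the myelin genes were. The 8 lowest were Fn3k, C1ql2, Rasl11a, Smc2, Socs3, Pmp22, Slc38a3 and Cavin3. Over the mature gate the 8 with the highest fitted values were Tnr, Neu4, Vcan, Spon1, Rlbp1, Gm38039, Cacng4 and Calcrl, with 0 mature-gate UMIs for Spon1 (at least 390-fold higher), Rlbp1 (385), Gm38039 (280) and Calcrl (205). The 8 with the lowest were Serpinb1a, Il33, Grm3, Itgb4, Anln, Cyp2j12, Gpt and C030029H02Rik, with 0 UMIs in the Gpr17-positive cells for Serpinb1a (at least 109-fold lower), Grm3 (40.9), Itgb4 (31.6), Cyp2j12 (20.6) and Gpt (19.5). The ranks of these genes are not fixed either.

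With only the 38 cells of 7 or more Gpr17 UMIs, a comparison added after seeing the data, 902 genes were called against the precursor gate and 225 above both neighbours. Cspg5 was then at a log2 fold change of -3.0 against the precursor gate, with Ccnd1 at -2.66 and Fyn at 3.38. The step had been chosen after the levels of such genes were seen, so these fold changes are a description and no test. Cspg5 was at 177, 204, 545 and 416 CPM, low in all 4 libraries beside the 1227 to 1621 CPM of all Gpr17-positive cells. By log2 fold change over the precursor gate, again as a description, Tnr was at 0.84, Neu4 at 0.59, Vcan at -0.21 and Sox6 at 0.34.

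Markers of microglia and of vessels were low in the Gpr17-positive cells, and 1 library stood apart in genes of immature neurons. The rule itself limited P2ry12, Cx3cr1, Cldn5 and Gja1, which are left out of the sums here. The other 14 microglia genes summed to 49.9, 88.7, 131 and 98.5 CPM, with 5, 9, 6 and 12 of them detected and Tmem119 at 0 in 3 libraries. C1qa was detected in 6.35% of the cells and in 99.9% of microglia. The other 12 endothelial and pericyte genes summed to 57.0, 60.7, 21.9 and 37.7 CPM, most of it Itm2a, with Pecam1, Flt1 and Cdh5 at 0 in every library. The other 12 astrocyte genes summed to 1183, 714, 941 and 852 CPM, with Slc1a2 the most abundant and Slco1c1 and Agt at 0 in every library and Gfap at 0 in the WT libraries. The 12 neuron genes summed to 755, 471, 648 and 461 CPM, with Stmn3 the most abundant and Gad2 at 0 in every library. The 8 ependymal and choroid plexus genes summed to 14.3, 9.33, 17.5 and 63.8 CPM, with Ttr the most abundant in Dp2Yey_2, and the 5 red blood cell genes to 21.4, 28, 26.3 and 81.2 CPM, with Hbb-bs or Hba-a2 the most abundant. The 11 immature neuron genes summed to 1311, 224, 289 and 217 CPM, highest in WT_1. In WT_1, 2 cells with 3 Gpr17 UMIs each held 127 of the 184 UMIs, and Igfbpl1, Neurod1, Neurod2 and Tbr1 were at 0 in every other library. No other Gpr17-positive cell held more than 10. Against the precursor gate 0 of 4 immature neuron genes tested, 0 of 2 microglia genes, 0 of 1 endothelial gene and 0 of 1 red blood cell gene passed in either direction by edgeR, and of 6 astrocyte genes 1 (Slc1a3) and of 4 neuron genes 2 (Stmn3 and Meg3) were lower. Against the mature gate 3, 0, 1 and 0 of the same lists were higher, as were 5 astrocyte and 4 neuron genes. No ependymal gene was high enough to test. The part of these other transcripts in the results was not tested.

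The share of Gpr17-positive cells was compared between genotypes over libraries. They were 1.96%, 1.90%, 2.36% and 1.89% of the barcodes with at least 200 genes, with exact 95% binomial intervals of 1.20% to 3.01%, 1.30% to 2.67%, 1.62% to 3.32% and 1.37% to 2.55%. Dp2Yey_1 was the highest, Dp2Yey_2 the lowest, and the genotypes overlapped. The means were 2.13% ± 0.331 (SD, n = 2) in Dp2Yey and 1.93% ± 0.0417 (SD, n = 2) in WT, with an exact two-sided permutation p of 1, where the smallest p that 2 against 2 libraries can give is 0.333. Of the cells in the 3 lineage populations they were 11.8%, 7.66%, 10.0% and 9.77%. The WT libraries were the highest and the lowest, with means of 9.90% ± 0.187 in Dp2Yey and 9.71% ± 2.91 in WT (SD, n = 2, exact permutation p of 1). The difference in the share of barcodes, 0.200 percentage points, changed sign without Dp2Yey_1 (-0.0339). That in the lineage share, 0.189 percentage points, changed sign without WT_2 (-1.87). As a share of Gpr17-positive and precursor-gate cells together, Dp2Yey differed from WT by -0.234 percentage points. At 2 or more Gpr17 UMIs this difference was -4.35 and at 4 or more 3.14, each at an exact permutation p of 0.333.

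Levels were compared between genotypes in the Gpr17-positive cells alone, on 4514 genes over the 4 sums, at the adjusted p under 0.01 that the study used. The quasi-likelihood test of edgeR called 0 genes (0%), with 125 at an unadjusted p under 0.05, and DESeq2 called 0, with 25. Both Dp2Yey libraries were above both WT libraries in 616 genes (13.6%) and below in 649. Without Dp2Yey_1, 60 genes were called, without Dp2Yey_2, 2, and without the filter on low counts, 15. In the fits without 1 library the lone sample of its genotype is assumed to vary like the other group. The smallest unadjusted p belonged to Egr1, an immediate early gene on the dissociation list, singled out after its values were seen. It was at 386, 454, 171 and 193 CPM, both Dp2Yey libraries below both WT libraries, with a log2 fold change of -1.21 and an adjusted p of 1.0 by edgeR. Among the 11 dissociation genes tested, 0 were called. Both Dp2Yey libraries were below both WT libraries in 4 of them, Egr1 included, beside 649 of all 4514 genes. This count is therefore not separate from the choice of Egr1. The committed and newly formed markers had 0 of 16 called, a median log2 fold change of 0.041 and 2 genes with both Dp2Yey libraries above and 3 with both below. The myelin list had 0 of 19 called with a median of 0.57, beside 0.0049 over all genes, with 0 genes with both Dp2Yey libraries above both WT libraries and 1, Omg (-0.86), with both below. Dp2Yey_2, with 5 of the 10 cells that met the mature sum, was the highest in genes such as Mag (157, 1119, 269 and 3651 CPM). Of the genotype differences themselves, 0 of 5040 (0%) differed between Gpr17-positive and precursor-gate cells by edgeR's interaction test, with 163 at an unadjusted p under 0.05 and 0 called by DESeq2. Without Dp2Yey_1 that count was 10, and without the filter on low counts 1.

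The duplicated segment was read as the protein-coding genes from Prmt2 to Pdxk (mm10 chromosome 10, 76207222 to 78464975). Of 62 annotated genes 61 were in the files, 26 had a UMI in the Gpr17-positive cells and 12 were tested. All 12 had a log2 fold change above 0 in Dp2Yey over WT, with a median of 0.73, beside 0.0049 over all 4514 genes. In 6 of the 12 both Dp2Yey libraries were above both WT libraries, against 13.6% of all genes, and 0 of 12 were called by edgeR or DESeq2, with 4 at an unadjusted p under 0.05. Over the 4 pairings of a Dp2Yey with a WT library, the median over the 12 genes ran from 0.51 to 1.01. Agpat3, an acyltransferase of lipid synthesis, was at 126, 122, 225 and 245 CPM, both Dp2Yey libraries high (log2 fold change 0.92, adjusted p 1.0). Cstb, an inhibitor of cathepsins, was at 110.2, 139, 186 and 291 CPM, again without overlap (0.93, adjusted p 1.0). Pttg1ip was at 78.7, 72, 191 and 129.5 CPM (1.07) and Rrp1, of ribosome assembly, at 149.5, 83.1, 259 and 179 CPM (0.93), and Trappc10 (0.98) and Pofut2 (0.53) also had no overlap. S100b, a calcium-binding protein and the segment's gene with the most UMIs here, was at 1755, 2167, 2875 and 1869 CPM. Dp2Yey_1 was the highest but Dp2Yey_2 lay below WT_2, so the genotypes overlapped (0.27, adjusted p 1.0). By stage, S100b was higher in Gpr17-positive cells than in either neighbour (0.71, adjusted p 0.00276, and 1.99, adjusted p 6.57e-10). It was the only one of 14 segment genes tested by stage that rose over the precursor gate, with 0 lower, a list median of 0.16, and 1 higher and 4 lower than in the mature gate (median -0.38).

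**Figure D5:**
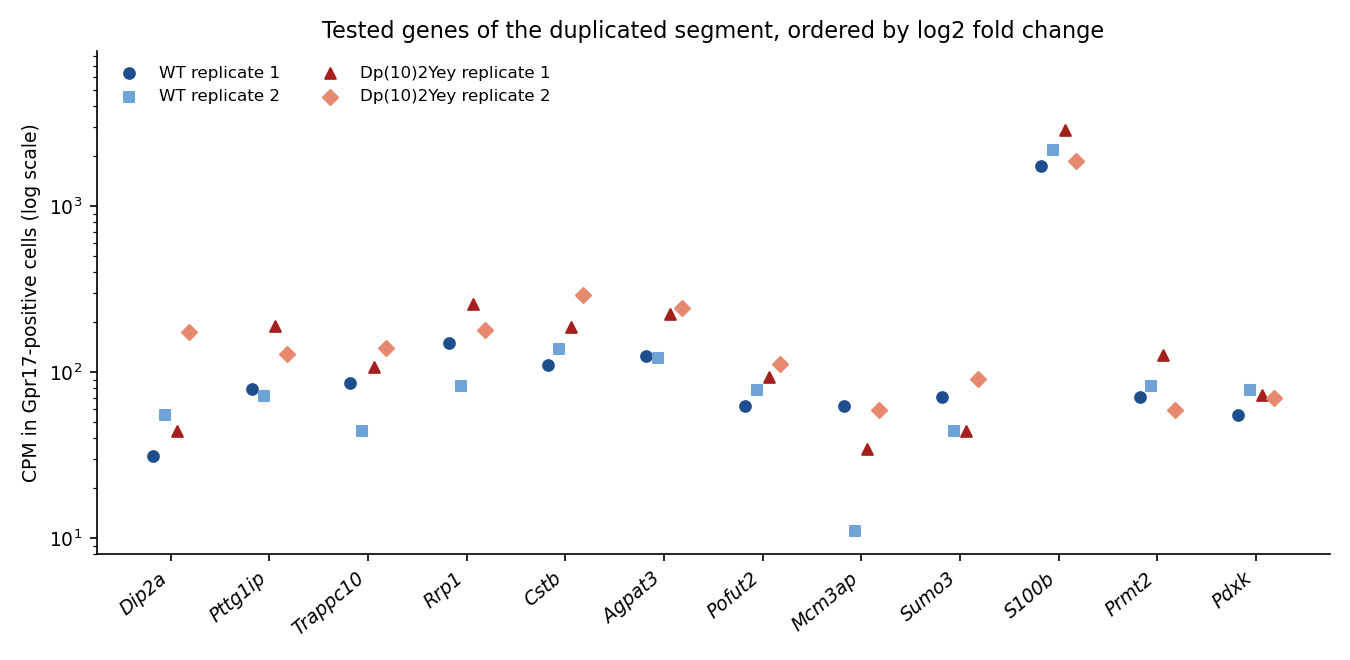
Level (CPM, log scale) of the 12 tested genes of the duplicated segment in the Gpr17-positive cells, 1 point per library, ordered by log2 fold change. Both Dp2Yey libraries lie above both WT libraries in 6 genes.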

How the data were processed

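The authors deposited UMI counts per gene and barcode, unnormalized, for 31055 genes in each of the 4 libraries, made with Cell Ranger 3.0.2 on a custom mm10 reference according to the submitters' processing notes. The members and gene lists were chosen with earlier results of these data known. Gates were applied to raw counts in Python 3.11.15, and doublets were called per library with Scrublet in scanpy 1.11.5 and kept. UMIs were summed per library and population. edgeR 4.0.16 (TMM, filterByExpr, quasi-likelihood test, Benjamini-Hochberg adjustment over all genes tested) ran in R 4.3.3 and was tested on simulated data, with DESeq2 1.42.0 as an alternative. Stage CPM were scaled over 12 sums and genotype CPM over 4, while rule genes, gate classes, Gpr17 ranges and list sums are in CPM of raw totals. Shares have exact binomial intervals, which cover counting error only. Thinning drew 1500 UMIs per cell, so cells with fewer were left out. Named are genes of the lists, the 12 highest over both neighbours with every library above both of its neighbours, the 8 highest and lowest against each neighbour past the threshold, and tested genes of the duplicated segment. The genotype part of the rule, the 5 largest each way past the threshold, named none. The lists were markers of lineage stages and of other cells, transcription factors, myelin, BMP, Wnt and Notch signaling, matrix, sialidases, receptors, cytoskeleton, cholesterol synthesis, cell cycle and its exit, dissociation, and the duplicated segment. Alternatives changed the tool, scaling, filter, threshold, block, gates and depth, and left out each library in turn. Results on a few genes of the lists are not reported here, while the counts and sums over lists include them.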

Additional observations from a re-analysis of the deposited data

How the results depend on the processing

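Of 792 alternatives for the log2 fold changes of single named genes, 778 kept their direction and side of the threshold, 5 lost it, 6 gained it and 3 changed sign. Of 107 for counts, shares and medians, 81 were counted as the same, 21 moved and 5 changed sign. Counts of genes had to stay within 1.5 times and the segment's median within the spread over pairs of libraries. Differences in shares had to keep only their sign, so those counted as the same may differ widely in size. The genes called against the precursor gate (397) became 632 without the filter on low counts, 813 at a threshold of 0.05, 234 and 628 at 2 and 4 or more Gpr17 UMIs, 233 with neighbours gated without the exclusion, 995 with cells in no neighbour gate and, added after seeing the data, 902 at 7 or more UMIs. Those against the mature gate (2893) became 1287 with cells in no neighbour gate, and those above both (84) became 146 at 0.05, 50 and 149 at 2 and 4 or more UMIs, 168 in no neighbour gate and 225 at 7 or more. Cells in no neighbour gate number 13, with 2 to 5 per library, and under that gate Neu4 over the precursor gate was at -0.026 and Cspg5 and Ccnd1 over the mature gate at -1.86 and -3.39. Leaving out 1 library gave 159 to 434 against the precursor gate, 2439 to 2648 against the mature gate and 48 to 79 above both. Genotype calls (0) were 15 and interaction calls (0) were 1 without the filter, which tests more genes, and 0 to 60 and 0 to 10 with 1 library left out. The segment's median ran from 0.55 to 0.76 without 1 library and was 0.51 without cells in the mature gate, also added after seeing the data. With the replicate number as a block it was 0.74 with 0 genotype calls. The deviations of libraries with the same replicate number from the means of their own genotypes correlated at 0.362 over 4272 genes, which are not independent, and the labels tie these samples by number only. The share of barcodes differed by 0.0402 and 0.351 percentage points at 2 and 4 or more UMIs, by -0.172 after thinning, where Dp2Yey_2 stood apart with 1 of 1709 barcodes (0.0585%, against 0.680%, 0.765% and 1.04% in the others; its Gpr17 was also the lowest, at 649 CPM against 976 to 1409), and by -0.0339 to 0.434 without 1 library. The lineage share differed by -0.905 and 1.20 at 2 and 4 or more UMIs, by -0.872 after thinning and by -1.87 to 2.24 without 1 library. Where no cause is given, the cause was not tested. Limits are 2 mice per genotype, 20 to 42 cells per library, a gate at 3 UMIs that depends on depth, and cells dissociated from tissue, in which free RNA was not measured apart.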
